A study of Arabidopsis thaliana with 12 samples.

Results

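The transcripts described here are those that a single-gene probe measured at a moderate brightness in wild-type plants of Arabidopsis thaliana, ecotype Columbia 0, a laboratory strain used worldwide. A probe was a member if the platform annotation gave it exactly 1 gene, if its deposited intensity was above 0 in all 12 samples, and if its mean over the 12 samples was 0.2 or more and under 1 on a scale that ends at 100. Of 3439 probes on the array, 692 carried 1 gene, 121 of these met the limits on intensity, and 7 were left out by probe ID or gene, which left 114 members for 114 loci. The values that chose the members are their levels over both groups, so these levels are a description, and the difference between the groups was not used. Just inside the lower limit lay AT3G57440 (mean deposited intensity 0.201) and AT5G62360 (0.201), and just outside it AT5G49800 (0.1998) and GLR2.7 (0.199). Just inside the upper limit lay AT1G12800 (0.973) and AT2G44760 (0.962), and just outside it AT5G53920 (1.01) and ATSPS4F (1.03). Brightness depends on the probe as well as on the transcript, so "moderate" refers to the signal of these probes and does not rank the genes by transcript number.

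Total RNA was hybridised to a 1-channel expression array, a slide on which each probe reports the RNA bound to it as light intensity. The first group of 6 samples came from light-adapted plants, and the second group of 6 came from light-adapted plants kept in darkness for 1 h. Both groups were wild type, and no tissue, plant age or growth condition is given in the sources used here. Separate plants are not stated for the samples, so each p-value reflects no more than the spread among these arrays, part of which may be technical. Green tissue was checked with 15 marker genes, of which 5 had a single-gene probe. The photosystem subunits PSBW, PSBY and PSAN had normalised intensities of 14.4 to 42.1, 2.12 to 3.61 and 5.68 to 10.3 over all 12 samples. PRK, of the Calvin cycle, had 4.01 to 5.58 in the light and 1.86 to 2.998 in the dark. CHLM, of chlorophyll synthesis, was dim, at 0.141 to 0.242 and 0.0308 to 0.308, values that reach the background limits given below. For 10 root, seed and pollen markers no single-gene probe was found, so other tissues were not checked.

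Light drives photosynthesis, sets the supply of sugars and reductant, and acts through photoreceptors on transcription. Moving a plant from light to darkness stops carbon fixation at once, and transcript levels of many genes follow within hours, through both photoreceptor and sugar signals and through the stability of each RNA. The brightest probes of green tissue usually belong to photosynthesis genes, while moderate ones cover regulators, enzymes of minor pathways and proteins that maintain organelles. In bulk RNA, a change in the number of cells of a type and a change in RNA per cell cannot be told apart.

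As deposited, the median intensity of the members was 0.280 to 0.377 in the light-adapted samples and 0.215 to 0.356 in the dark ones. Quantile normalisation gives all arrays 1 distribution and so brings such medians together: the median normalised intensity of the members was 0.275 to 0.327 in the 6 light-adapted samples and 0.294 to 0.321 in the 6 dark ones. Neighbouring sample numbers resembled each other, so samples 1 and 2, 3 and 4, and 5 and 6 of each group were averaged on the log2 scale, and means below rest on 3 averaged replicates per group. Between partners the median absolute log2 difference of the members was 0.179, 0.204 and 0.307 in the light and 0.131, 0.179 and 0.184 in the dark. Between averaged replicates it was larger, 0.509 to 0.655 in the light and 0.238 to 0.359 in the dark. Most members therefore varied more among light-adapted replicates than among dark ones: the SD of the log2 values was larger in the light for 87 members and larger in the dark for 27.

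Samples 5 and 6 stood apart by their correlation. Across the members their log2 values correlated at 0.566 with each other in the light and at 0.678 in the dark, against 0.779 to 0.935 for the other 4 pairs. In the dark each of them was closer to another dark sample (highest correlation 0.833 for sample 5 and 0.770 for sample 6) than to its partner. By correlation the 5 and 6 pairs thus held less firmly over these 114 members than the rest. The partner differences did not show this for the dark pair. Its median absolute log2 difference was 0.184, near the 0.179 of dark samples 3 and 4. AT3G23940 had 0.00661 and 1.90 in dark samples 5 and 6, and its part in the lower correlation was not tested. Light-adapted samples 5 and 6 differed over 2-fold for 14 members and over 4-fold for 5, against 2 or 3 and 0 or 1 members in each of the other 5 pairs.

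A background limit was set in each sample as the 95th percentile of the values of probes whose partner sample read 0. Set in this way, the limit can also depend on how far partners differ, which was not tested. It was 0.0850, 0.0934, 0.136 and 0.194 on the normalised scale in light-adapted samples 3 to 6 and 0.0289 to 0.0501 in the other 8 samples. Of the 114 members, 111 to 114 were above it in 10 samples, 96 in light-adapted sample 5 and 82 in light-adapted sample 6. In all 12 samples 76 members (66.7%) were above the limit, against 24.2% of all probes. The rule already asked for values above 0 in all 12 samples and a mean of 0.2 or more. A share above that of all probes therefore follows largely from the choice of members. Of 567 probes with several genes or none that met the same limits on intensity, 74.6% were above the background limit in all 12 samples. In at least 1 light-adapted sample 37 members were not above it, and 2 members were not above it in every dark sample. Among members named below, 3 of 6 light-adapted samples were above it for AT1G13370, AT1G09200 and AT3G23940. For AT5G38310, AT5G40030, AT4G24930, AT5G06990, AT4G21170, AT4G22650, AT1G73430, TPP2 and AT3G04210 there were 4 of 6. The size of a change measured from such a level is uncertain, and the part of background in it was not tested.

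**Figure D1:**
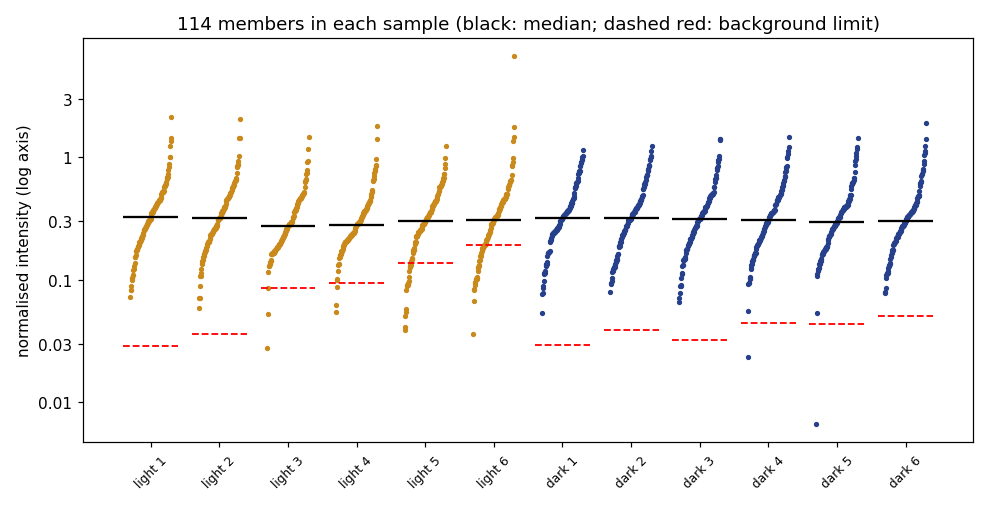
Normalised intensity (log axis) of the 114 members in each of the 12 samples, with points sorted by value within a sample, a black bar at the median and a dashed red line at the background limit. Medians lie between 0.275 and 0.327 in all samples, while the limit reaches 0.136 and 0.194 in light-adapted samples 5 and 6.

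The comparison of 1 h of darkness with light asked which transcripts differ after this short dark period. Of the 114 members 9 changed in limma, fitted over all 3439 probes with a threshold of 0.05 on the p adjusted by Benjamini and Hochberg: 5 rose in the dark and 4 fell. That is 7.89% of the members, while 7.76% of all probes were called, so the members' share lies near that of all probes. Of the 567 probes with several genes or none in the same range of brightness, 16.9% were called. This difference was not tested, and the share is not read as a result about the members. Called rises made up 4.39% of the members and 4.3% of all probes, and called drops 3.51% and 3.46%. The changes of all 114 ran from -2.0 to 3.34 on the log2 scale with a median of 0.06, and the median over all probes was 0. At least 2-fold differences in the fit were found for 32 members (28.1%, against 25.9% of all probes), 16 in each direction.

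The model of the replicates set how many members passed. When each pair number formed a replicate block, limma called 0 members and 0% of all probes; 41 members had an unadjusted p under 0.05, and the lowest adjusted p was 0.0628. With 6 samples against 6 and no averaging, a fit that takes partners as independent, 50 members passed (43.9%, against 23.7% of all probes). They included 8 of the 9. Of these 50, 31 were higher in the dark, where 12.9% of all probes were called, and 19 lower, where 10.8% were. Like the members, 567 probes with several genes or none were above 0 in all samples and in the same range of brightness. In this fit 264 of them passed, and the difference from the members was not tested. Leaving out dark samples 1 and 2 left 0 members (27 at an unadjusted p under 0.05 in limma), and leaving out dark samples 3 and 4 or 5 and 6 left 2 and 1. The scaling moved the split: without normalization 1 member rose and 7 fell (4.51% of all probes were called), with median scaling 4 and 8 (6.86%), and with cyclic loess 3 and 6 (7.85%).

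Irrespective of a model, all 6 dark samples lay above all 6 light-adapted samples for 20 members and below them for 10. Among all probes 8.81% lay fully above and 6.51% fully below. These 30 are 26.3% of the members, and 15.3% of all probes had no overlap of this kind. With the averaged replicates, 56 members did not overlap (49.1%), against 28.7% of all probes. Of these 33 were higher in the dark (15.3% of all probes) and 23 lower (13.4% of all probes). Brighter single-gene probes, with a mean of 1 or more, had no overlap of single samples in 42.9% of 49, and dimmer ones, or those with a 0, in 8.81% of 522. Of the 567 probes in the same range of brightness that carried several genes or none, 31.9% had no overlap of single samples. For the averaged replicates 47.6% of these 567 had none, and 16.9% were called. The difference between the members and these other sets was not tested.

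**Figure D2:**
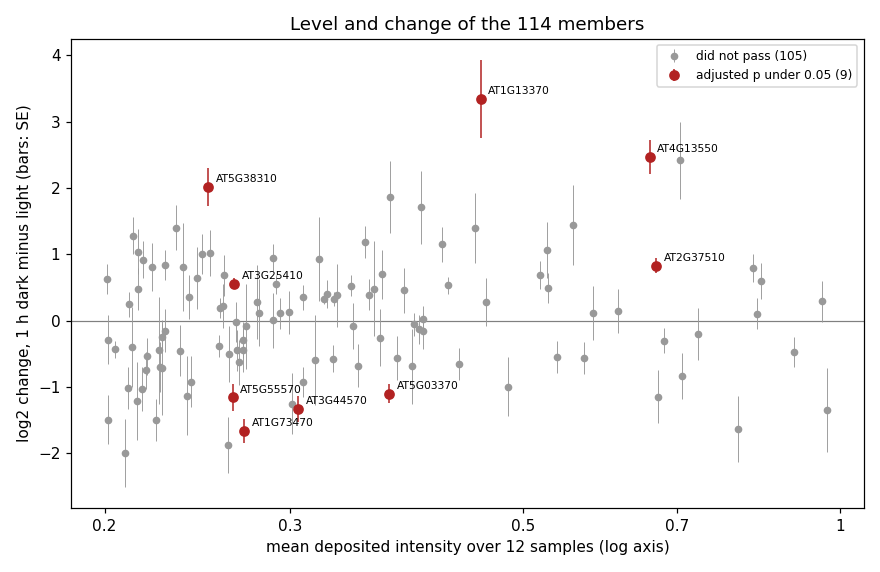
Log2 change (1 h dark minus light, bars give the SE) of the 114 members against their mean deposited intensity on a log axis, with the 9 that passed in red. Changes above and below 0 occur over the whole range of brightness. Of the 22 members with a mean of 0.5 to under 1, none passed as a drop. The highest point, 3.34, is AT1G13370, for which 3 of 6 light-adapted samples were above the background limit.

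Within the range of brightness the shares were similar by count. Of 56 members with a mean under 0.3, 4 were called, of 36 with 0.3 to under 0.5, 3 were called, and of 22 with 0.5 to under 1, 2 were called. Differences between partners narrowed with brightness, from a median of 0.225 to 0.177 and 0.138 on the log2 scale. All 22 of the brightest were above the background limit in all 12 samples, against 27 of 36 and 27 of 56 in the others.

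AT1G13370, a gene of the histone H3 family, which packages nuclear DNA, had the largest rise. Its normalised intensity was 0.0359, 0.0869 and 0.123 (lowest, median and highest) in the light and 0.439, 0.611 and 1.47 in the dark. Every dark sample was above every light-adapted one, and dark samples 3 and 4, at 1.41 and 1.47, were the brightest. The mean went from 0.0787 ± 0.0321 (SD, n = 3) to 0.836 ± 0.530, a log2 change of 3.34 (SE 0.59, limma adjusted p = 0.0425; 0.0855 with the replicate block). Only 3 of 6 light-adapted samples were above the background limit, so this change was taken from a level near that limit. Its call was lost without normalization (adjusted p = 0.125), without light-adapted sample 2 (0.0527) and without any 1 of the 6 pairs. H3 genes are close copies of each other, and whether this probe tells them apart is not known here.

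AT4G13550, of the class 3 lipase family, whose members cleave fatty acids from lipids, rose with the smallest adjusted p of the members. It stood at 0.145, 0.213 and 0.315 in the light and at 1.00, 1.07 and 1.44 in the dark. No light-adapted sample came near a dark one, and all 12 were above the background limit. From 0.215 ± 0.0574 to 1.17 ± 0.228 (SD, n = 3), the log2 change was 2.47 (SE 0.26, limma adjusted p = 0.0133; 0.0628 with the block). The call held in each of the 12 fits without 1 sample (adjusted p up to 0.0257) and was lost without any of the 3 dark pairs (up to 0.0575).

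AT5G38310, a locus with no role given here, rose as well. Its normalised intensity ran through 0.0703, 0.0961 and 0.160 in the light and 0.313, 0.412 and 0.520 in the dark, with no overlap. The log2 change was 2.01 (SE 0.29, limma adjusted p = 0.0281; 0.0731 with the block, and 0.134 without normalization). In the light 4 of 6 samples were above the limit. Its call was lost without each pair other than light-adapted samples 3 and 4 (adjusted p up to 0.107).

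A smaller rise was that of AT2G37510, which encodes a protein of the RNA-binding family. Light-adapted values were tight, at 0.440, 0.496 and 0.570, and dark values were 0.770, 0.898 and 0.975. The lowest dark sample was above the highest light-adapted one, although the log2 change was only 0.82 (SE 0.11, limma adjusted p = 0.0244; 0.0770 with the block). It did not pass without normalization (0.100), with median scaling (0.0796) or with cyclic loess (0.0801). The call was also lost when only probes above 0 in all samples were fitted, and without 4 of the 6 pairs (up to 0.0931).

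AT3G25410, of the sodium:bile acid symporter family of membrane carriers, had the smallest called change. It had 0.160, 0.215 and 0.288 in the light against 0.297, 0.323 and 0.338 in the dark, groups that stood side by side without overlap. The log2 change was 0.56 (SE 0.09, limma adjusted p = 0.0316; 0.111 with the block). Its light-adapted samples spread more than the averaged values show, since partners differed in opposite directions and their averages nearly coincided. The call was lost with each of the other scalings (adjusted p = 0.146 to 0.648). It was lost without light-adapted sample 1, 2 or 6 (up to 0.169) and with neighbouring numbers as random blocks (0.0835). Of the 6 pairs, only the removal of light-adapted samples 5 and 6 left it called (up to 0.119 for the rest). Lowering the floor to percentile 1 also ended the call (0.0626), as did restricting the fit to probes above 0 in every sample.

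Of the 4 members that fell, AT1G73470 had the largest drop. It was at 0.302, 0.373 and 0.574 in the light and at 0.0778, 0.125 and 0.185 in the dark, above the background limit in all 12 samples. Light-adapted sample 6 was the highest of its group, and no sample of one group reached the other. The mean fell from 0.395 ± 0.0374 to 0.127 ± 0.0274 (SD, n = 3), a log2 change of -1.66 (SE 0.18, limma adjusted p = 0.0151; 0.0716 with the block). Its call was kept without each single sample and lost without dark samples 1 and 2 or 3 and 4 (adjusted p up to 0.0667).

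AT3G44570 fell from 0.350, 0.419 and 0.506 to 0.113, 0.171 and 0.227 (lowest, median and highest). The groups did not overlap, and the log2 change was -1.33 (SE 0.19, limma adjusted p = 0.0277; 0.0989 with the block). It was not called without normalization (0.0752) or without any 1 of the 6 pairs (up to 0.108).

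AT5G03370, of the acylphosphatase family, small enzymes that hydrolyse acyl phosphates, fell as well. Light-adapted samples had 0.435, 0.486 and 0.580, and dark samples 0.196, 0.221 and 0.302. All dark samples were lower, by a log2 change of -1.10 (SE 0.15, limma adjusted p = 0.0222; 0.0716 with the block). The call held without each single sample (up to 0.0414) and under every other scaling and floor, and was lost without any 1 of the 6 pairs (up to 0.0849).

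AT5G55570 passed with averaged partners and not with single samples. Its dark samples were tight, at 0.101, 0.106 and 0.141, while its light-adapted samples ran from 0.0573 in sample 5 to 1.47 in sample 6 with a median of 0.227. Of the 9 called members it was the only one whose groups overlapped. Light-adapted sample 5 was below that sample's background limit of 0.136. Averaging light-adapted samples 5 and 6 on the log2 scale gave a value near those of the other pairs, and the log2 change was -1.16 (SE 0.21, limma adjusted p = 0.0437; 0.0915 with the block). With 6 samples against 6 the adjusted p was 0.210. Without light-adapted sample 6 the change was -0.38 (adjusted p = 0.801) and without sample 5 it was -1.94 (adjusted p = 0.264). The call was also lost without light-adapted sample 4 (0.0587) and without dark sample 6 (0.066). Of the 6 fits without a pair, only that without light-adapted samples 3 and 4 kept it (up to 0.149 in the others). It was lost too with the floor at the 1st percentile, with neighbouring numbers as random blocks and with a replicate block by sample number.

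**Figure D3:**
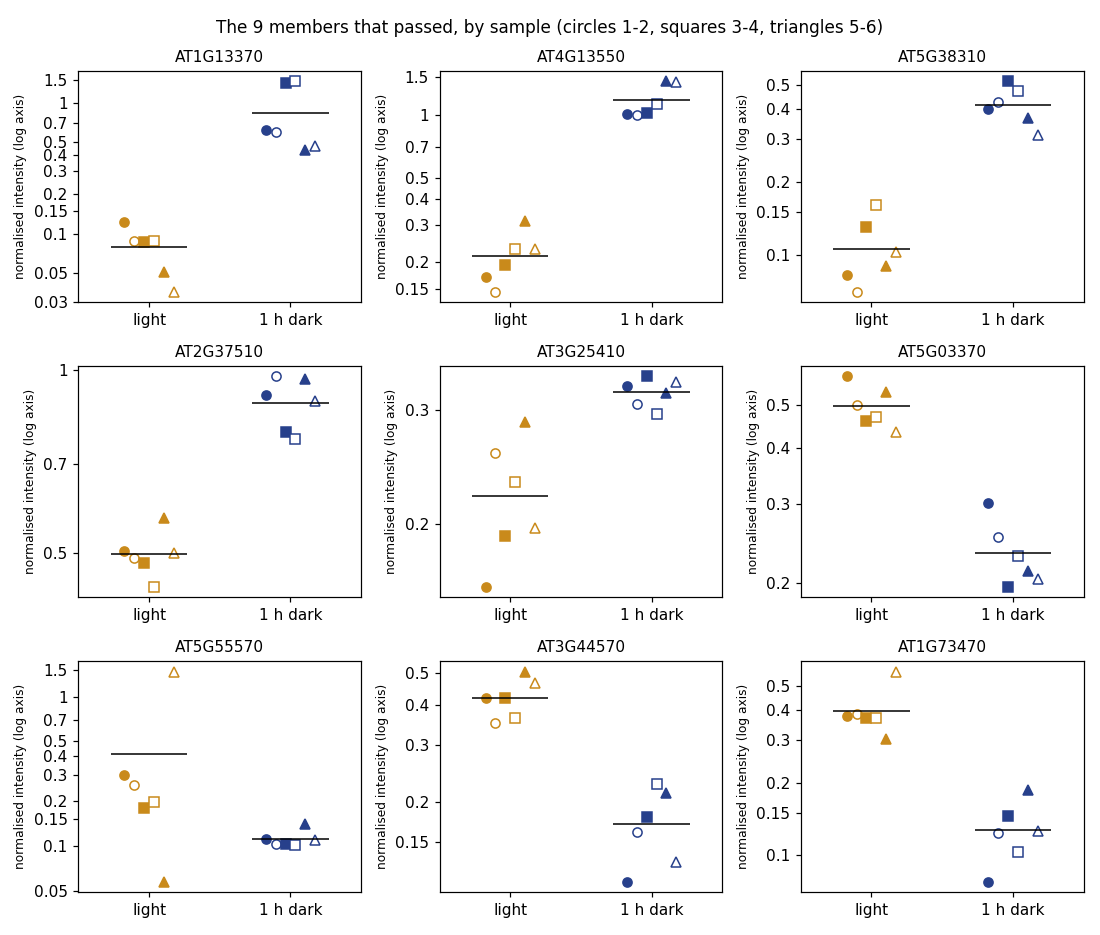
Normalised intensity (log axis, scaled per panel) of the 9 members that passed, for 6 light-adapted (orange) and 6 dark (blue) samples; symbols mark neighbouring numbers, with the odd number filled, and black bars are means of the averaged replicates on the linear scale. The groups overlap for AT5G55570 alone, whose light-adapted samples 5 and 6 lie at 0.0573 and 1.47.

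Several members had larger differences that did not pass. CYN, which encodes cyanase, an enzyme that breaks down cyanate, had 0.0992, 0.169 and 0.586 in the light and 1.00, 1.18 and 1.4 in the dark. Its groups did not overlap, but light-adapted samples 5 and 6, at 0.586 and 0.472, were well above the other 4 of at most 0.184. The log2 change of 2.41 (SE 0.58) had an adjusted p of 0.0789 in limma (0.155 with the replicate block). Without light-adapted samples 5 and 6 the limma adjusted p was 0.0115 (log2 change 3.04). These samples were the closest to the dark ones, so leaving them out had to enlarge the change and lends it no support. AT5G40030, of the protein kinase family, had 0.0829, 0.157 and 0.202 in the light and 0.305, 0.423 and 1.06 in the dark (log2 change 1.86, SE 0.54, limma adjusted p = 0.118), with 4 of 6 light-adapted samples above the background limit. As for AT1G13370, its dark samples 3 and 4 were the brightest, at 0.959 and 1.06. AT1G50390, of the pfkB carbohydrate kinase family, had 0.0711, 0.244 and 0.326 in the light and 0.546, 0.613 and 0.690 in the dark (1.71, SE 0.55, limma adjusted p = 0.148). AT4G09620, of the mTERF family of organelle gene expression factors, had 0.129, 0.389 and 0.649 against 0.499, 0.853 and 1.09 (1.44, SE 0.60, limma adjusted p = 0.248), with overlap.

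In the other direction, AT5G39410, of the saccharopine dehydrogenase family, had 0.203, 0.352 and 0.380 in the light and 0.0235, 0.0909 and 0.118 in the dark. Every dark sample was lower, yet the log2 change of -2.0 (SE 0.51) did not pass in limma (adjusted p = 0.0889). Its dark sample 4, at 0.0235, was below that sample's background limit of 0.0444. By pair number the log2 differences were -1.19, -3.23 and -1.58, the second holding that sample, so the size of the change is uncertain. AT1G49870 had 0.238, 0.381 and 0.520 against 0.0553, 0.119 and 0.164 (-1.88, SE 0.42, limma adjusted p = 0.0673). AT2G29870, of the aquaporin family of water channels, had 0.176, 0.273 and 0.449 against 0.0767, 0.104 and 0.136 (-1.50, SE 0.31, limma adjusted p = 0.0599). Groups of all 3 were fully apart, and each passed in limma with 6 samples against 6 (adjusted p = 0.00290, 0.000785 and 0.000776), a fit that takes partners as independent, and did not with the replicate block (0.190, 0.125 and 0.122).

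AT3G24190, of the ABC1 atypical kinase family, of which several members act in plastids, rested on 1 sample for its size. Its light-adapted samples had 0.284, 0.449 and 6.71, the last being sample 6, and its dark samples 0.180, 0.213 and 0.241. All dark samples were still lower than all light-adapted ones. The log2 change of -1.64 (SE 0.50, limma adjusted p = 0.132) became -0.88 without light-adapted sample 6 (adjusted p = 0.102).

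Grouped by role, from general knowledge since the annotation gives most members no more than a locus number, 70 members had a role and 44 had none. Members named below were picked for their role after their values had been seen, and the groups are too small for a call share to be set against the 7.76% of all probes. The plastid group held 11 members, of which 0 passed in limma (4 had p under 0.05 before adjustment, and 2 passed with 6 samples against 6). Its log2 changes ran from -1.64 to 1.395 with a median of -0.20.

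Tetrapyrrole and isoprenoid steps of the plastid were the highest of that group. HEMA3, a glutamyl-tRNA reductase, the enzyme that opens chlorophyll and heme synthesis, had 0.192, 0.261 and 0.377 in the light and 0.465, 0.557 and 0.864 in the dark (log2 change 1.15, SE 0.26, limma adjusted p = 0.0700). AT1G78620, which phosphorylates phytyl phosphate in the recovery of phytol from chlorophyll for vitamin E, had 0.108, 0.313 and 0.486 against 0.586, 0.626 and 0.738 (1.395, SE 0.52, limma adjusted p = 0.197). In both, every dark sample was above every light-adapted one. The catalytic subunit of ferredoxin-thioredoxin reductase, AT2G04700, which passes electrons from the light reactions to thioredoxins, had means of 0.313 ± 0.0721 and 0.399 ± 0.0787 (SD, n = 3; log2 change 0.39, limma adjusted p = 0.411).

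Other plastid members were closer to 0 or lower in the dark without passing. PIFI, named for the post-illumination rise in chlorophyll fluorescence, had almost the same mean in both groups, 0.292 ± 0.129 and 0.287 ± 0.102 (log2 change 0.01, SE 0.42). That SE leaves room for a change in either direction. SECE1, a subunit of the thylakoid protein translocase, had 0.427 ± 0.126 and 0.265 ± 0.0661 (-0.68, limma adjusted p = 0.296). The fibrillin AT2G35490, the rubredoxin AT1G54500 and the rhodanese family genes AT4G24750 and AT4G27700 had log2 changes of -0.29, -0.20, -0.44 and 0.11. The thylakoid lumen protein AT4G24930 had the largest spread of all members, with a pooled SD of 1.07 on the log2 scale. Its light-adapted samples 1 and 2 had 0.725 and 0.654, while the other 4 had at most 0.138 and the dark samples 0.129 to 0.170.

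Among 12 members for RNA binding and organelle gene expression, 1 rose, AT2G37510, and none fell. The median log2 change was 0.19. OTP70, a pentatricopeptide repeat protein needed for organelle transcript processing, had 0.102, 0.135 and 0.154 in the light and 0.226, 0.314 and 0.565 in the dark (log2 change 1.399, SE 0.34, limma adjusted p = 0.0801). Its groups did not overlap, and 5 of 6 light-adapted samples were above the background limit. The 4 members of the mTERF family, which bind organelle nucleic acids in plastids and mitochondria, were spread from the 1.44 of AT4G09620 through -0.06 for AT1G61990 and -0.56 for AT1G62150 to -0.63 for AT1G62010. The first is given above, and none of the 4 passed. AT1G61990, AT1G62010 and AT1G62150 have neighbouring locus numbers, and whether their probes bind each other's transcripts is not known here.

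AT1G12800, with an S1 RNA-binding domain, was the brightest member by mean deposited intensity and averaged 1.41 ± 0.825 under light and 0.481 ± 0.125 after darkness (log2 change -1.35, SE 0.63, limma adjusted p = 0.293). The RNA-binding family genes AT1G70200 and AT1G01080 had log2 changes of -0.65 and 0.12, the iojap family gene AT3G12930 had 0.25, the pentatricopeptide repeat gene AT4G21170 had 0.28, and AT1G24240, of the ribosomal protein L19 family, had 0.35. None of these passed (limma adjusted p = 0.193 to 0.891).

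The 5 members of nuclear gene regulation included both histone H3 genes. While AT1G13370 rose, AT1G09200, annotated as histone H3.1, had 0.0277, 0.205 and 0.666 in the light and 0.0801, 0.122 and 0.144 in the dark. The lowest and the highest of its light-adapted values were samples 3 and 4, which are partners, so its log2 change of -0.40 (SE 0.60, limma adjusted p = 0.754) is poorly measured. The difference between the changes of the 2 genes was not tested. TCP15, a transcription factor of leaf growth, had 0.170 ± 0.0415 and 0.347 ± 0.121 (1.02, SE 0.35, limma adjusted p = 0.168). The MADS-box gene AGL103 and the high mobility group box gene AT5G05330 differed by -0.29 and -1.21 (log2), short of the threshold.

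None of 6 protein kinase members passed (2 had p under 0.05 in limma before adjustment, and 2 passed with 6 samples against 6). Beside AT5G40030, the receptor-like kinase gene AT2G39360 had means of 0.450 ± 0.0681 and 0.633 ± 0.131 (log2 change 0.49, limma adjusted p = 0.282). The PRP4-type kinase gene AT3G25840, whose relatives phosphorylate splicing factors, had 0.281 ± 0.116 and 0.133 ± 0.0185 with no overlap of single samples (-1.01, limma adjusted p = 0.140). AT1G69910, AT3G57120 and the plastid casein kinase 2 subunit gene AT2G23070 had 0.03, 0.11 and -0.15.

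Metabolic enzymes were the largest group, with 24 members and a median log2 change of 0.05, 12 above 0 and 12 below. Of these AT4G13550 rose and AT5G03370 fell. THIC, which makes the pyrimidine part of thiamine and whose transcript carries a riboswitch, had 0.186, 0.203 and 0.229 in the light and 0.269, 0.427 and 0.490 in the dark (log2 change 0.95, SE 0.21, limma adjusted p = 0.0659). AT3G45770, of the zinc-type alcohol dehydrogenase family, had 0.192, 0.214 and 0.238 against 0.344, 0.452 and 0.712 (1.19, SE 0.24, limma adjusted p = 0.0584). In both, light-adapted values were tight, the dark ones spread, and the groups did not overlap.

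Enzymes of branched-chain amino acid synthesis were represented by 2 members. The gene of ketol-acid reductoisomerase, AT3G58610, averaged 0.288 ± 0.0472 under light and 0.404 ± 0.0433 after darkness (log2 change 0.52, SE 0.16, limma adjusted p = 0.124). That of dihydroxyacid dehydratase, AT3G23940, could not be read: dark samples 5 and 6 had 0.00661 and 1.90, and light-adapted samples 5 and 6 had 0.0407 and 0.918. Pyruvate orthophosphate dikinase, PPDK, which makes phosphoenolpyruvate from pyruvate, had 0.379 ± 0.0596 and 0.214 ± 0.0435 (-0.93, SE 0.23, limma adjusted p = 0.0862).

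Further enzyme genes had log2 changes of -1.26 for AT1G50510 (indigoidine synthase A family), -0.997 for AT3G06200 (guanylate kinase family), -0.84 for AT5G19050 (alpha/beta hydrolase family), 0.68 for AT4G25290 (DNA photolyase family), 0.69 for AT1G24040 (acetyltransferase family) and 0.81 for AT1G30700 (berberine bridge enzyme family), none of which passed. The least precise was AT1G10310, of the short-chain dehydrogenase family, with a pooled SD of 0.95 on the log2 scale. Its light-adapted samples 1 and 2 had 0.626 and 0.840 and the other 4 had 0.147 to 0.184.

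The remaining groups were small. Transport and trafficking had 3 members, AT3G25410, AT2G29870 and AT1G73430 of the COG complex of Golgi trafficking (log2 change 0.38, limma adjusted p = 0.694). All 4 members of cell wall and secretion had negative changes that did not pass, from -1.49 for the pectin methylesterase inhibitor AT5G62360 through -0.45 for GH9B12 and -0.45 for the lipid transfer gene AT4G22490 to -0.09 for AT4G22650. AT5G62360 did not overlap between the groups and had 0.280 ± 0.100 and 0.102 ± 0.0315 (limma adjusted p = 0.0829). The protein turnover genes TPP2, a peptidase, and AT1G49850, of the RING finger family, had 0.47 and -0.44. The kinesin gene AT3G44050, the exonuclease gene AT3G15140 and the disease resistance family gene AT3G04210 had 1.28, 0.10 and 0.64, the first with no overlap (limma adjusted p = 0.0659).

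**Figure D4:**
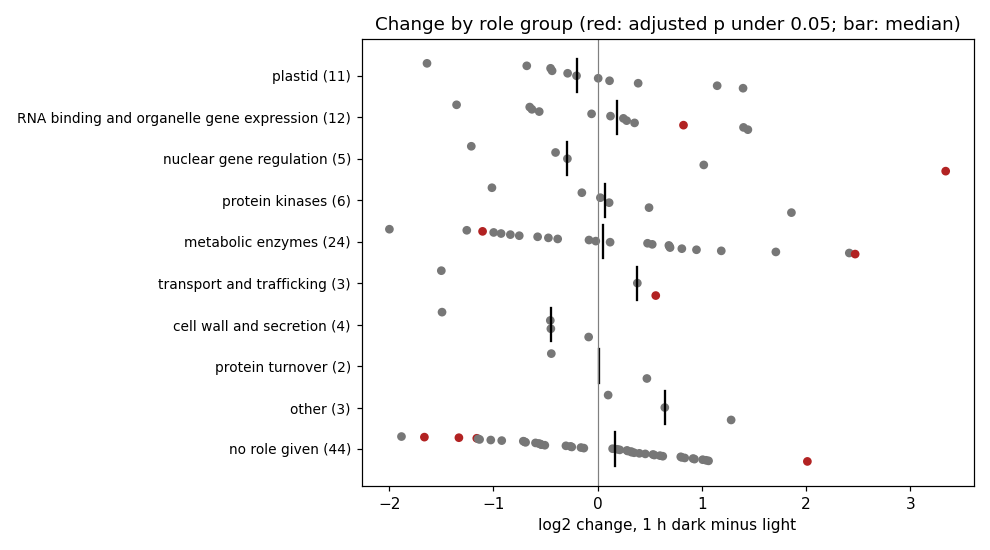
Log2 change (1 h dark minus light) of each of the 114 members by role group, with the number of members in parentheses, members that passed in red and the group's median as a black bar. Points lie on both sides of 0 in 8 of the 10 groups, and the medians run from -0.45 for cell wall and secretion to 0.64 for the 3 members under other.

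The steadiest members, by pooled SD of the averaged log2 values, were AT1G51080 (0.08), AT3G25410 (0.09), AT4G20300 (0.13) and AT2G37510 (0.13). AT1G51080 had 0.262, 0.285 and 0.323 in the light and 0.338, 0.371 and 0.384 in the dark, close groups that did not overlap (log2 change 0.32, SE 0.08, limma adjusted p = 0.0862). AT4G20300 had 0.296 ± 0.0296 and 0.367 ± 0.0291 (0.32, SE 0.11, limma adjusted p = 0.166). At the other end stood AT4G24930, AT5G06990 (0.96), AT1G10310 and AT5G06010 (0.89). Light-adapted samples 1 and 2 were the highest of their group in each of these 4, at 0.526 and 0.466 for AT5G06990 and at 0.598 and 0.664 for AT5G06010. Their dark values did not show the same step, except in AT5G06010, whose dark samples 1 and 2 had 0.483 and 0.377 against 0.0782 to 0.244 in the others.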

How the data were processed

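The authors deposited 1 table of linear intensities per probe and sample, from 0 to 100 in each column. How the slides were scanned, background-corrected and scaled: not given in the sources used here. In each sample 16.3% to 22.2% of probes read 0. Groups and sample numbers came from the titles. Arrays were quantile normalised in limma 3.58.1 (R 4.3.3), values under 0.0121 (5th percentile of those above 0) were set to it, and log2 was taken. Neighbouring numbers were averaged (limma correlation within pairs 0.438), and all 3439 probes were fitted with lmFit and eBayes, dark minus light, without a block. Means and SDs are of normalised linear values, averaged by pair. The limma fit alone was tested on simulated data, without normalisation, zeros or paired samples. Precision is limited by how few arrays there are.

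The members, role groups, background limit and choice of averaging were made with earlier results of these data known. Deviations of same-numbered samples from their group means correlated at 0.131 to 0.220 for the 6 numbers and at 0.120, 0.146 and 0.208 for the 3 averaged pairs, all over 0.1, which meets the limit set for pairing; this rests on the values, as no label states it. The reported fit nevertheless has no block, and the adjusted p with the replicate block stands beside each of the 9 calls, all of which it ends.

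All 114 members matched a locus in a RefSeq table of assembly TAIR10.1, and 13 had a symbol other than the locus. Coordinates are left out, since the probes come with no named build. The rule for named genes took all called members, the 4 largest differences in each direction among those not called, and the 4 with the smallest and the 4 with the largest spread. Its part on annotation classes, which needed 5 members, named none; 49 further members were named for their role after their values were seen. Alternatives changed the normalization, the floor, the averaging, the block, the spread estimate, the probes fitted and the samples. Figures were drawn with matplotlib 3.10.9.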

Additional observations from a re-analysis of the deposited data

Results flagged for a closer look

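Within a group of 6 samples, 9 values of named members lay far from the nearest other sample for the range of their group, among 144 groups checked on the log2 scale with Dixon's criterion. For 6 independent values from a normal distribution, chance flags about 1 in 20 groups. Neighbouring samples resemble each other and some members were named for their spread or change, so the rate here is not known. Light-adapted sample 6 accounted for 3: AT3G24190 at 6.71 against 0.501 in the nearest sample, AT1G73470 at 0.574 against 0.382, and AT2G39360 at 0.283 against 0.460. Light-adapted sample 5 was low for AT3G44050 (0.0389 against 0.117) and light-adapted sample 3 for AT2G35490 (0.171 against 0.297). In the dark, sample 5 was high for AT5G55570 (0.141 against 0.111) and sample 1 for AT3G06200 (0.349 against 0.294), while sample 4 was low for AT5G39410 (0.0235 against 0.0657) and sample 3 for AT1G24240 (0.0888 against 0.257).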

How the results depend on the processing

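Every fit is compared with 9 called members, 5 up and 4 down, and 267 called probes. With 6 samples against 6 there were 50 members (31 up, 19 down) and 814 probes, with neighbouring numbers as random blocks 34 (22 and 12) and 585, and with a replicate block by sample number in the fit of 12 samples 43 (26 and 17) and 784, fits that enter all 12 samples. Averaged pairs with the replicate block gave 0, 0 and 0 members and 0 probes (41 members and 798 probes at an unadjusted p under 0.05 in limma). Without normalization there were 8 members, 1 up and 7 down, 4 of them among the 9, with 155 probes and a median of the members' log2 changes of -0.25 against 0.06. Median scaling gave 12 members (4 up, 8 down) and 236 probes, and cyclic loess 9 (3 and 6) and 270. Fitting only probes above 0 in all samples gave 17 members (9 up, 8 down), 7 of them among the 9, with 15.2% of the probes fitted called. With samples left out, members called ranged from 0 to 10, rises from 0 to 6, drops from 0 to 5 and probes from 17 to 273. The lowest came without dark samples 1 and 2 (0 members, 17 probes); without dark samples 3 and 4 there were 2 members and 95 probes, and without 5 and 6 there were 1 and 63. Without light-adapted samples 1 and 2, 3 and 4, and 5 and 6 there were 3, 5 and 7 members. For these shifts the cause was not tested. The remaining settings gave 7 to 10 members. Estimates of the 9 called members never changed sign in these alternatives; 50 of 162 with samples left out and 26 of 99 others missed the threshold. Levels near the background limit in light-adapted samples 3 to 6 restrict what can be said of dim members.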
